A study of Arabidopsis thaliana with 6 samples.

Results

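A set of 5 genes for oxidoreductases, enzymes and carriers that move electrons, is described here in Arabidopsis thaliana seedlings. The genes are AT3G04000 and AT4G13180, which encode short-chain dehydrogenases, AT4G20860, an FAD-linked oxidase of the berberine bridge enzyme-like family, AT5G35735, a protein with DOMON and cytochrome b561 domains, and JRG21 (AT3G55970), a 2-oxoglutarate-dependent dioxygenase. Each is read by 1 probe set, so the group is 5 of 22746 probe sets. The genes were selected on their measured intensity, as higher on the estradiol arrays than on the mock arrays. Their estradiol over mock values are therefore a description of how they were chosen and carry no test. The choice did not directly use how HY213 and wild type compare under estradiol, or how the replicates compare, and these were tested. Since the genes are high under estradiol in both lines by choice, the comparison of lines is not independent of it.

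The seedlings were 9 days old and came in 3 groups of 2 arrays. HY213 seedlings were sampled after 8 h of estradiol, wild-type seedlings after 8 h of estradiol, and HY213 seedlings after 8 h of mock treatment. HY213 is taken to be the pER22-AGL24 line of the design text, in which estradiol switches on the MADS-box gene AGL24 through the XVE system, a chimeric transcription factor that needs estradiol. The ecotype is given as Columbia for 5 of the 6 samples and not for mock replicate 1. Each array holds RNA of a pool of seedlings, and the pools of replicates 1 and 2 are biologically independent per the design text. A mock-treated wild type is not among the 6 samples, so wild type under estradiol against HY213 mock mixes the line with the chemical.

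Short-chain dehydrogenases use a nicotinamide cofactor to interconvert alcohols and carbonyl compounds, and plants use many of them on hormones, lipids and reactive aldehydes. Berberine bridge enzyme-like oxidases carry a bound flavin and pass electrons to oxygen, with hydrogen peroxide as a product, and several act on sugars released from the cell wall. DOMON and cytochrome b561 proteins carry haem in membranes and are thought to hand electrons across them. JRG21 hydroxylates jasmonic acid, a hormone of wounding and defence, which withdraws it from the active pool, and the gene is itself induced by jasmonate.

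AGL24 read 106 and 401 in estradiol-treated HY213, 5.05 and 4.60 in estradiol-treated wild type and 4.98 and 4.87 in mock HY213, high in the first group alone. Array medians lay between 6.95 and 7.27 intensity units, and the highest Bacillus control probe set of an array, taken here as the background, between 5.14 and 6.22. All 5 genes read above that background on all 6 arrays. Of the photosynthetic markers, the 2 measured, LHCB4.1 and PSAN, were above background on all 6 arrays, as were the 2 measured root markers, both peroxidase genes, AT4G30170 and AT4G11290. The 1 measured seed gene, AT2G28490, read 4.56 and 11.03 in estradiol HY213 and between 4.43 and 4.97 on the other 4 arrays. Of 4 flower markers sought, 0 were measured.

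AT3G04000 read 50.5 and 209 in estradiol HY213 (replicates 1 and 2), 55.6 and 210 in estradiol wild type, and 22.5 and 56.0 in mock HY213. The 2 lines under estradiol lay close together within each replicate, and the replicate 2 mock array stood as high as the replicate 1 estradiol arrays, so the groups overlap. The group means were 129.9 ± 112 in estradiol HY213, 133 ± 109 in estradiol wild type and 39.2 ± 23.7 in mock HY213 (SD, n = 2 each). Set against the mock array of the same replicate, HY213 was 2.25-fold and 3.74-fold higher under estradiol, and wild type 2.48-fold and 3.74-fold.

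AT4G13180, the other short-chain dehydrogenase gene, read 38.7 and 43.4 in estradiol HY213, 33.99 and 46.5 in estradiol wild type, and 20.5 and 19.5 in mock HY213. This is the one gene of the 5 whose replicates lay close together in every group, and all 4 estradiol arrays stood above both mock arrays. Its group means were 41.0 ± 3.27 in estradiol HY213, 40.3 ± 8.88 in estradiol wild type and 19.96 ± 0.707 in mock HY213 (SD, n = 2 each). The ratios over mock were 1.89 and 2.23 in HY213 and 1.66 and 2.39 in wild type. Ranked within each array, a measure that no scaling between arrays can change, it stood at percentiles 82.7 and 82.9 in estradiol HY213, 81.05 and 83.7 in estradiol wild type, and 74.0 and 73.0 in mock HY213.

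AT4G20860 encodes an oxidase known to act on cellodextrins, the fragments of cellulose. It read 25.2 and 105 in estradiol HY213, 27.0 and 85.9 in estradiol wild type, and 13.8 and 32.8 in mock HY213. As with AT3G04000, the replicate 2 mock array read above both replicate 1 estradiol arrays, so the order of estradiol over mock holds within a replicate and not across them. The means were 65.2 ± 56.6 in estradiol HY213, 56.4 ± 41.6 in estradiol wild type and 23.3 ± 13.4 in mock HY213 (SD, n = 2 each), and the ratios over mock 1.82 and 3.21 in HY213 and 1.95 and 2.62 in wild type.

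AT5G35735 read 49.4 and 123 in estradiol HY213, 33.4 and 109 in estradiol wild type, and 19.5 and 28.8 in mock HY213. Every estradiol array stood above both mock arrays, with the replicate 1 wild-type array nearest to them. The means were 86.4 ± 52.3 in estradiol HY213, 71.2 ± 53.4 in estradiol wild type and 24.1 ± 6.58 in mock HY213 (SD, n = 2 each). Over mock, HY213 was 2.54-fold and 4.29-fold higher and wild type 1.72-fold and 3.79-fold.

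JRG21 read 12.4 and 116 in estradiol HY213, 11.1 and 48.8 in estradiol wild type, and 6.73 and 14.2 in mock HY213. The replicate 2 array of estradiol HY213 stood far above the other 5, and the replicate 1 mock value lay just over the background of its array, 6.17. Here too the replicate 2 mock array read above both replicate 1 estradiol arrays, so the groups overlap. The means were 64.05 ± 73.1 in estradiol HY213, 29.9 ± 26.6 in estradiol wild type and 10.5 ± 5.29 in mock HY213 (SD, n = 2 each). The ratios over mock were 1.84 and 8.14 in HY213 and 1.65 and 3.43 in wild type. Within arrays the gene ranked at percentiles 66.1 and 92.0 in estradiol HY213, 63.5 and 84.15 in estradiol wild type, and 46.2 and 67.9 in mock HY213.

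**Figure D1:**
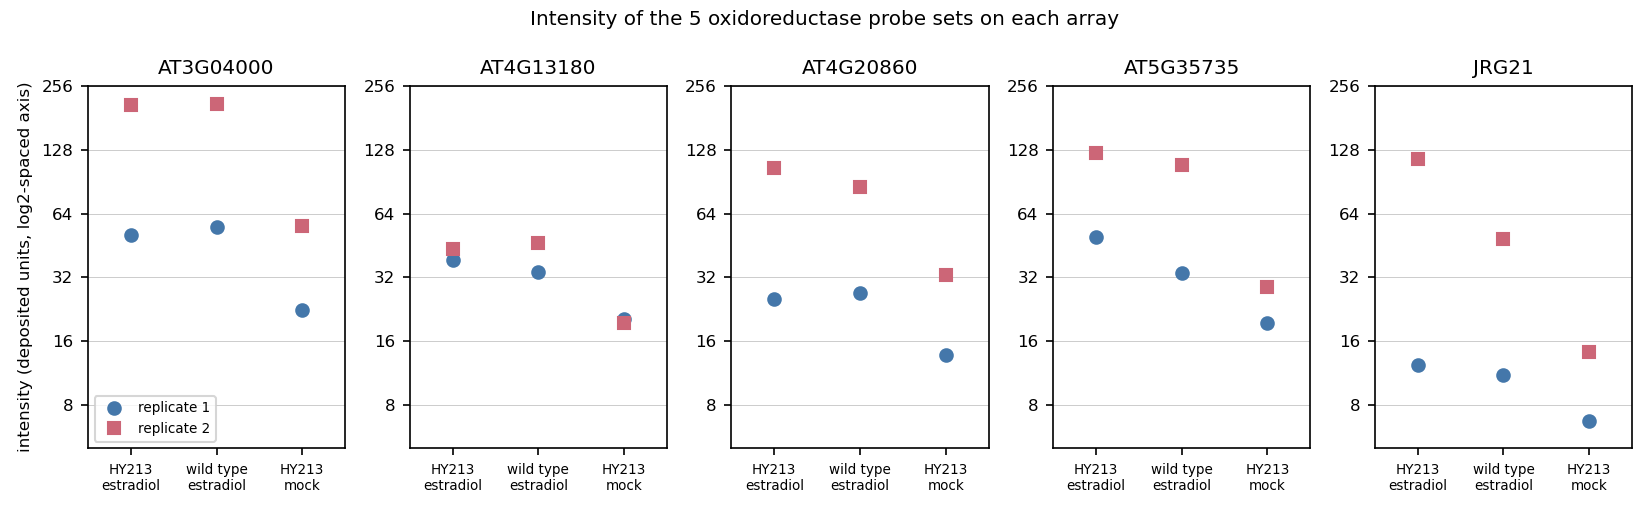
Intensity of each gene's probe set (deposited units, log2-spaced axis) in estradiol HY213, estradiol wild type and mock HY213, with circles for replicate 1 and squares for replicate 2. Replicate 2 reads above replicate 1 in every group except for AT4G13180, whose mock arrays read 20.5 and 19.5; levels are not compared between panels, since probe sets differ in how strongly they bind.

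All 5 genes had all 4 ratios over the mock array of the same replicate at 1.5 or more, where 0.0484% of the 22746 probe sets did, which is 11 probe sets. This is the contrast the genes were chosen by, so nothing is read from that share, nor from the 11.9% of probe sets with all 4 ratios above 1. Ordered by the smallest of the 4 ratios, AT3G04000 came 2nd of all probe sets with 2.25, AT4G20860 5th with 1.82, AT5G35735 6th with 1.72, AT4G13180 7th with 1.66 and JRG21 8th with 1.65. Of the other 6 of the 11, 5 are not listed for 1 gene, and the last is AT3G22060, at 1.63, whose mock values of 4.38 and 5.45 lie at background. Just under 1.5 stood AT2G16900 at 1.47 and AT5G43450, another dioxygenase gene, at 1.45. In 2 of the 5, AT4G13180 and AT5G35735, all 4 estradiol arrays lay above both mock arrays, which held for 5.21% of all probe sets.

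**Figure D2:**
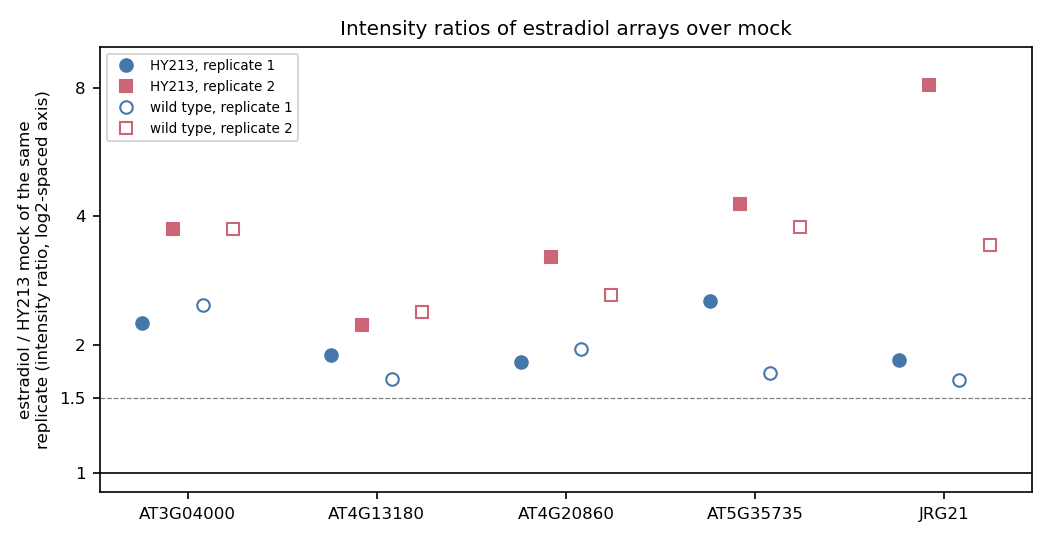
Ratio of each estradiol array to the HY213 mock array of the same replicate (intensity, log2-spaced axis), with filled symbols for HY213, open symbols for wild type, circles for replicate 1 and squares for replicate 2. The solid line marks 1 and the dashed line 1.5; every point lies above 1.5, and JRG21 in HY213 replicate 2 is the highest at 8.14.

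The ratio over mock was larger in replicate 2 than in replicate 1 in both lines for all 5 genes. Among the 2718 probe sets with all 4 ratios above 1, 21.8% had the larger ratio in replicate 2 in both lines. The genes were chosen by these ratios, and both lines share the mock array of each replicate, so nothing is read from this share. Among the 5 genes, the distance between the replicates in HY213 was smallest in AT4G13180, at 1.89 and 2.23, and largest in JRG21, at 1.84 and 8.14. In wild type it was smallest in AT4G20860, at 1.95 and 2.62, and largest in AT5G35735, at 1.72 and 3.79. On the log2(intensity + 16) scale, which damps differences in dim probe sets, the median over the 5 genes was 1.22 for estradiol HY213 minus mock and 0.79 for estradiol wild type minus mock, with medians over all probe sets of -0.000438 and 0.000192. Without the replicate 2 array of estradiol HY213 the first of these was 0.34, and without the replicate 2 array of estradiol wild type the second was 0.31. With a pseudocount of 64 in place of 16 they were 0.66 and 0.43.

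The root markers differed between arrays as well. Their summed level was 299 and 156 in estradiol HY213, 241 and 173 in estradiol wild type, and 261 and 452 in mock HY213, so that in replicate 2 both estradiol arrays lay below mock, while in replicate 1 they lay on either side of it. AT4G30170 read 242 and 138 in estradiol HY213, 217 and 159 in estradiol wild type and 230 and 403 in mock. AT4G11290 read 56.5 and 17.2, 23.7 and 13.7, and 31.1 and 49.4 in the same order of groups. The photosynthetic markers summed to 1164 and 1513 in estradiol HY213, 1309 and 1749 in estradiol wild type, and 1362 and 1487 in mock. Their part in the results was not tested, and in whole seedlings fewer cells of a type and less RNA per cell cannot be told apart.

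The comparison of HY213 with wild type, both under estradiol, holds the chemical constant and asks what goes with the HY213 line. AGL24 cannot be told apart here from other differences between the lines. The 5 genes were chosen as above mock under estradiol in both lines, so a gene high in a single line would hardly be among them. No difference between the lines was resolved in any of the 5 genes. The test did not call AGL24 either, which read high in HY213 alone, so it can miss a large difference. limma called 0 of the 22746 probe sets (0%) at an adjusted p of 0.05 and 0 of the 5, with 176 probe sets at an unadjusted p under 0.05. With the replicate number as a block it again called 0, with 826. HY213 stood above wild type in both replicates in 2 of the 5 genes, where 27.4% of all probe sets did so. These were AT5G35735, at ratios of 1.48 and 1.13, and JRG21, at 1.11 and 2.37.

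For AT3G04000 the difference HY213 minus wild type was -0.054 ± 0.74 (SE) on the log2(intensity + 16) scale, with a 95% interval of -1.85 to 1.74 (limma unadjusted p 0.944). The blocked model narrows that interval to -0.56 to 0.45, since the distance between the replicates no longer counts as spread. For AT4G13180 it was 0.027 ± 0.16 (SE), from -0.35 to 0.41 and from -0.25 to 0.31 with the block. A doubling of the wild-type mean would be 0.92 on this scale for AT3G04000 and 0.78 for AT4G13180. Both blocked intervals end below that, and so does the unblocked interval of AT4G13180.

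AT4G20860 differed by 0.095 ± 0.61 (SE), with intervals of -1.37 to 1.56 unblocked and -0.34 to 0.53 blocked. AT5G35735 differed by 0.28 ± 0.52 (SE), from -0.96 to 1.52 unblocked and from -0.23 to 0.79 blocked. A doubling of the wild-type mean would be 0.83 and 0.86 in these 2 genes, above the blocked intervals. JRG21 differed by 0.54 ± 0.73 (SE), from -1.21 to 2.30 unblocked and from -0.21 to 1.30 blocked, which includes a doubling of the wild-type mean (0.72). Unadjusted p over the 5 genes ran from 0.480 to 0.944 without the block and from 0.136 to 0.827 with it, and the adjusted p were 1 and 0.998 throughout. A p that misses the threshold does not show that the lines are alike, and an exact permutation test of 2 arrays against 2 cannot go below 0.333.

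**Figure D3:**
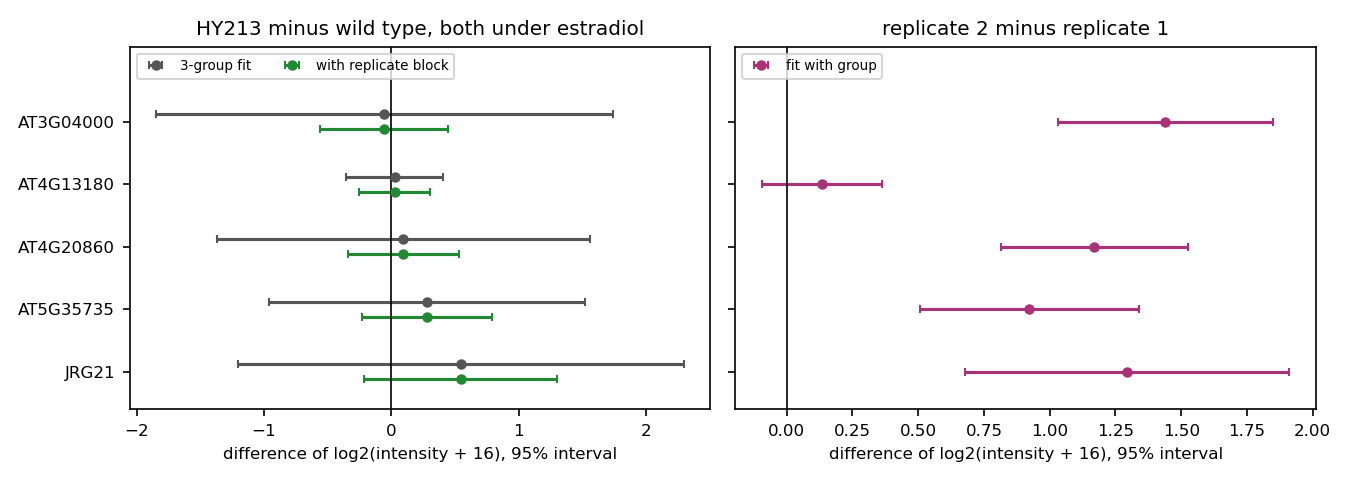
Differences of log2(intensity + 16) with 95% intervals from limma for estradiol HY213 minus estradiol wild type (left, without and with the replicate number as a block) and for replicate 2 minus replicate 1 over the 3 groups (right). All intervals on the left include 0, and on the right the interval of AT4G13180 alone does.

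The replicates of the study are 2 independent rounds of pools, and 4 of the 5 genes were higher in replicate 2 over the 3 groups. AT3G04000 was higher by 1.44 ± 0.18 (SE, limma adjusted p 0.00359), AT4G20860 by 1.17 ± 0.15 (adjusted p 0.00448), AT5G35735 by 0.92 ± 0.18 (adjusted p 0.0184) and JRG21 by 1.29 ± 0.27 (adjusted p 0.0221), all on the log2(intensity + 16) scale with groups in the model. AT4G13180 differed by 0.13 ± 0.099 (SE, adjusted p 0.417, 95% interval -0.094 to 0.36) and was the gene that did not pass. The background of this comparison is high, with 6.47% of all probe sets called higher in replicate 2 and 4.57% called lower.

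In the 4 genes that passed, the distance was present in every group, mock included. AT3G04000 in replicate 2 was 4.15-fold its replicate 1 level in estradiol HY213, 3.77-fold in estradiol wild type and 2.49-fold in mock, and AT4G20860 was 4.18-fold, 3.18-fold and 2.37-fold. AT5G35735 stood at 2.497-fold, 3.26-fold and 1.48-fold, and JRG21 at 9.35-fold, 4.38-fold and 2.11-fold. In each the smallest of the 3 ratios was that of mock, which restates that the ratio over mock was larger in replicate 2 in both lines. AT4G13180 stood at 1.12-fold and 1.37-fold in the estradiol groups and 0.951-fold in mock.

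In 4 of the 5 genes replicate 2 read above replicate 1 in all 3 groups, as did 22.9% of all probe sets. In 3 of the 5, AT3G04000, AT4G20860 and JRG21, the 3 replicate 2 arrays lay above the 3 replicate 1 arrays regardless of group, as did 16.5%. The ratio of the 5' to the 3' actin control probe set, a sign of RNA quality, was 0.538, 0.485 and 0.529 on the replicate 2 arrays of estradiol HY213, estradiol wild type and mock, against 0.498, 0.357 and 0.258 on the replicate 1 arrays. That of GAPDH was 1.97, 1.75 and 1.85 on the replicate 2 arrays, against 2.03, 1.71 and 2.04 on the replicate 1 arrays, and so did not differ in 1 direction. Their part was not tested. The calls are lost in all 4 genes when the variance prior has no mean-variance trend (adjusted p from 0.0824 to 0.208). AT5G35735 also lost its call without any 1 of the 4 estradiol arrays (adjusted p from 0.0648 to 0.0869), and JRG21 without either wild-type array (0.0524 and 0.0570).

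The relatives of the 5 genes were taken from family lists, of which only genes with a named probe set could be measured. Of 110 other probe sets in 6 lists, limma called 0 for estradiol HY213 against wild type, 0 for estradiol HY213 against mock and 0 for wild type under estradiol against mock, where 0% of all probe sets were called in each. At an unadjusted p under 0.05 there were 1, 2 and 2 of the 110, and with the replicate block 4, 14 and 12, again with 0 called. Over all 22746 probe sets these counts were 176, 272 and 268, and with the block 826, 962 and 1215. None of the 110 had all 4 ratios over mock at 1.5 or more. Of all probe sets 0.0484% did, 11 with the 5 chosen genes among them, so this 0 says little.

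Among the short-chain dehydrogenases, 47 of 68 genes were measured. Besides the 2 described, 8 of 46 probe sets (17.4%) had all 4 ratios over mock above 1, where 11.9% of all probe sets did. Of the 46, 25 were above background on all 6 arrays. Among the 8 only TSC10A and the dimmer SDRB probe set were, with smallest ratios of 1.01 and 1.06. The brightest of the 46 were AT1G24360, a plastid fatty acid synthesis enzyme, AT1G01800, SDRB, a peroxisomal enzyme of fatty acid breakdown, and AT2G29340. AT1G24360 read 210 and 259 in estradiol HY213, 155 and 213 in estradiol wild type, and 205 and 248 in mock, and AT1G01800 read 90.0 and 83.6, 96.8 and 70.5, and 76.8 and 80.2 in the same groups. AT2G29340 read 88.0 and 91.2, 64.9 and 75.3, and 75.2 and 68.9. In AT1G24360 the groups overlap. In AT1G01800 and AT2G29340 both estradiol HY213 arrays lay above both mock arrays, by less than 1.5-fold, while the estradiol wild-type arrays lay on either side of both mock arrays. SDRB has 2 probe sets, and that with the lower mean was called higher in replicate 2 (0.80 on the log2 scale, adjusted p 0.00482), as was AT4G24050 (0.30, adjusted p 0.0126).

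AT3G03980, a short-chain dehydrogenase gene that is separated from AT3G04000 by 1 gene in RefSeq order, was picked after its values were seen. It read 11.2 and 12.6 in estradiol HY213, 11.2 and 11.4 in estradiol wild type, and 13.3 and 10.9 in mock. Its ratios over mock lay on both sides of 1 in each line, at 0.845 and 1.16 in HY213 and 0.839 and 1.05 in wild type. AT3G04000 was chosen as higher under estradiol, so nothing is read from the contrast between these neighbours.

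Of the berberine bridge enzyme-like oxidases 22 of 27 genes were measured, and 4 of the 21 other than AT4G20860 were above background on all 6 arrays. AT4G20830, an oxidase known to act on pectin fragments, is separated from AT4G20860 by 3 genes in RefSeq order. It read 28.8 and 126 in estradiol HY213, 22.2 and 105 in estradiol wild type, and 19.3 and 51.5 in mock, with all 4 ratios above 1 and the smallest at 1.15. It was higher in replicate 2 by 1.42 (adjusted p 0.00250), which makes its pattern over the arrays similar to that of AT4G20860. AT1G30700 read 6.61 and 20.7 in estradiol HY213, 7.03 and 18.3 in estradiol wild type, and 5.55 and 6.38 in mock, and was also called higher in replicate 2 (0.44, adjusted p 0.0375). The brightest of the family, AT5G44380, read 328 and 279, 390 and 182, and 340 and 328 in the same order, and AT1G30760 read 12.8 and 7.21, 15.9 and 9.14, and 14.1 and 21.8. Both had estradiol arrays on either side of mock or below it.

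In the DOMON and cytochrome b561 list, 11 of 13 genes were measured, and the brightest besides AT5G35735 was AT3G07570, at 18.4 and 31.9 in estradiol HY213, 22.7 and 29.6 in estradiol wild type, and 22.1 and 27.8 in mock. Of the 10 others, AT4G17280 was the one with all 4 ratios above 1. It read 6.32 and 8.83 in estradiol HY213, 8.21 and 9.35 in estradiol wild type, and 5.53 and 5.58 in mock, near background. AT3G25290 and AT4G12980 read between 5.89 and 9.71 on all 6 arrays, and none of the 10 was called between the replicates.

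Of the 2-oxoglutarate-dependent dioxygenases 24 of 37 genes were measured. The brightest, AT5G05600, a jasmonic acid oxidase gene like JRG21, read 99.2 and 288 in estradiol HY213, 108 and 210 in estradiol wild type, and 82.8 and 161 in mock. Its 4 ratios over mock were all above 1, the smallest at 1.20, and it was higher in replicate 2 by 1.03 (adjusted p 0.00831). The third such gene, AT2G38240, read 5.21 and 43.6 in estradiol HY213, 6.43 and 25.02 in estradiol wild type, and 5.40 and 5.87 in mock. It was thus well above background only on the 2 replicate 2 estradiol arrays. The fourth, AT3G11180, read between 4.71 and 5.58 throughout, at background. AT2G38240 and AT3G11180 were picked after their values were seen.

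Several other dioxygenase genes differed between the replicates. AT5G59540 (0.66, adjusted p 0.00460), AT5G43450 (0.71, adjusted p 0.00187) and AT1G06620 (0.24, adjusted p 0.0277) were called higher in replicate 2, and AT1G06640 was called lower (-0.77, adjusted p 0.0200). AT1G06640 read 174 and 84.6 in estradiol HY213, 200 and 94.0 in estradiol wild type, and 170 and 122 in mock, so that members of this family were called in both directions. AT1G06650 read between 24.5 and 37.8 on all 6 arrays.

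In the list of jasmonate synthesis and response 3 of 29 genes were measured, THI2.1, PDF1.2 and JMT, and none was above background on all 6 arrays, so the list has little to set beside JRG21. In the list of electrophile and xenobiotic response, genes of detoxification, 7 of 31 were measured and 4 had all 4 ratios over mock above 1 (57.1%, with 11.9% of all probe sets). Of these 4, AT5G16980 and GSTU25 were not above background on all 6 arrays. GSTU25 read between 4.24 and 4.71 throughout, at background, so the share says little. AER, which encodes a reductase of reactive alkenals, read 67.7 and 188 in estradiol HY213, 88.3 and 136 in estradiol wild type, and 55.8 and 58.8 in mock. All 4 of its estradiol arrays lay above both mock arrays, as for AT4G13180 and AT5G35735. UGT73B5 read 11.4 and 11.5 in estradiol HY213, 10.1 and 18.5 in estradiol wild type, and 8.83 and 10.3 in mock.

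AT4G01870 and AT3G23550 of the same list followed the replicates instead. AT4G01870 read 180 and 441 in estradiol HY213, 188 and 496 in estradiol wild type, and 188 and 370 in mock. AT3G23550, a transporter gene of the MATE family, read 12.6 and 52.6, 14.3 and 89.2, and 13.3 and 43.9 in the same order. In both the replicate 1 estradiol arrays did not stand clearly above mock, and both were called higher in replicate 2 (1.16 and 1.36, adjusted p 0.00336 and 0.00194), as was AT5G16980 (0.28, adjusted p 0.0217).

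**Figure D4:**
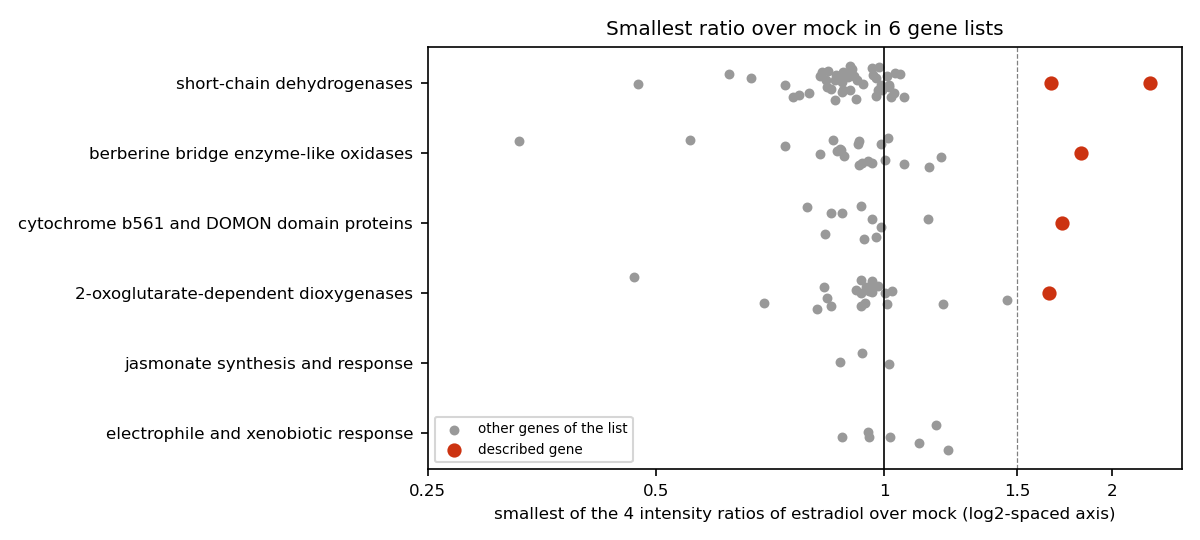
Smallest of the 4 intensity ratios of estradiol over the mock array of the same replicate (log2-spaced axis) for each probe set of 6 gene lists, with the 5 described genes as large red points and the others as small grey points, spread vertically only to be seen apart. The solid line marks 1 and the dashed line 1.5; the 5 genes were chosen on this contrast and lie between 1.65 and 2.25, and the nearest other gene is AT5G43450 at 1.45.

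Likeness of pattern was described by Pearson's r over the 6 arrays on the log2(intensity + 16) scale, among named probe sets above background on every array whose SD over the arrays was at least 0.5 times that of the gene itself. This left 206 candidates for AT3G04000, 1895 for AT4G13180, 419 for AT4G20860, 397 for AT5G35735 and 237 for JRG21. The 6 points share 2 rounds and 3 groups, so r tends to be high for genes that differ between the replicates in the same direction, and no p is given. AT3G04000 and AT4G20860 were closest to each other (r 0.991), and the 5 genes correlated with each other between 0.670 (AT4G13180 with JRG21) and that value. All 5 were chosen on the same contrast with mock, which by itself raises r among them, so these values are no sign of shared control. AT4G13180, which did not follow the replicates, had the lowest values throughout, from 0.670 to 0.873.

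The 3 closest genes to AT3G04000 were AT4G20860, LTI30, a dehydrin gene of cold and drought (r 0.979), and GH3.3, an auxin-conjugating enzyme gene (r 0.971). LTI30 was also the closest to AT5G35735 (r 0.990), followed by AT3G04000 (r 0.963) and the peroxidase gene AT5G66390 (r 0.952). AT5G66390 read 19.7 and 50.6 in estradiol HY213, 12.4 and 29.0 in estradiol wild type, and 10.3 and 11.6 in mock. For AT4G20860 the closest after AT3G04000 were AT2G28570 (r 0.989) and AT5G18150 (r 0.988).

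For AT4G13180 the closest was AT5G42050 (r 0.926), at 174 and 196 in estradiol HY213, 201 and 242 in estradiol wild type, and 133 and 134 in mock, another gene whose mock replicates lay close together. AT5G35735 (r 0.873) and AT1G04970 (r 0.868) came next. JRG21 was closest to AT2G16900 (r 0.994), which read 11.6 and 53.4 in estradiol HY213, 11.6 and 34.5 in estradiol wild type, and 7.88 and 11.6 in mock. AT1G74010 (r 0.981) and AT1G19020 (r 0.972) followed. AT1G19020 read 34.7 and 288, 36.9 and 211, and 29.5 and 44.7 in the same groups, high on the 2 replicate 2 estradiol arrays as JRG21 is.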

How the data were processed

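Total RNA of 6 seedling pools was labelled with biotin and read on Affymetrix arrays, per the labels. The authors deposited linear intensity values for 22810 probe sets. MAS5 and RMA both appear in the submitters' processing notes, but their roles and any scaling target are not given in the sources used here; this bears on dim probe sets such as JRG21. Replicate numbers and groups come from sample titles. Leaving out 64 controls left 22746 probe sets, named through platform annotation (13513 for 1 gene) and RefSeq (TAIR10.1, 13436 matched). No coordinates or sequences are printed.

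Ratios use the deposited intensities. Tests used log2(intensity + 16) in limma 3.58.1 (R 4.3.3, eBayes with trend, Benjamini-Hochberg over 22746, threshold 0.05). They were also run on simulated data with noise independent between arrays. For the comparison of groups those data held no difference between replicates, unlike the arrays here. Groups were compared over 6 arrays (3 residual degrees of freedom), and replicate numbers in a fit with group (2). Deviations from group means correlated between same-numbered arrays (r 0.822, 0.693 and 0.665), so the number is also used as a block. With 2 arrays per group precision is low.

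The genes and lists were chosen with earlier results of these data known. Named are the 5 genes, up to 4 brightest per list, the 3 most alike, list members called between replicates, and any marked as picked later. Alternatives were other pseudocounts (1, 64; none, added after seeing the data), quantile or median scaling, no trend, dropping the dimmest 25%, the estradiol arrays alone, the block, no group term, a threshold of 0.1 and each array left out.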

Additional observations from a re-analysis of the deposited data

How the results depend on the processing

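For HY213 against wild type under estradiol, the count of calls stayed at 0 in all 10 alternatives other than leaving out an array, the replicate block among them (0 calls, with AT5G35735 still at 0.28), and each of the 5 genes kept its sign and missed the threshold there. Leaving out 1 array gave 0 to 16 calls, none of them in the 5 genes, and values from -0.94 to 0.83 for AT3G04000, -0.13 to 0.19 for AT4G13180, -0.68 to 0.87 for AT4G20860, -0.39 to 0.95 for AT5G35735 and -0.56 to 1.65 for JRG21, so the sign turned in all 5; by construction this step unbalances the replicates. For replicate 2 against replicate 1, 2510 probe sets were called, 431 without the variance trend, 4216 at a threshold of 0.1, and 637 to 4062 with 1 array left out. The 5 genes kept their direction in all 9 other alternatives and with each array left out. With a pseudocount of 64 JRG21 lost its call (adjusted p 0.0524), and without a group term AT3G04000, AT5G35735 and JRG21 did (0.0557, 0.157 and 0.0743). The median over the 5 genes of estradiol HY213 minus mock ran from 0.34 to 1.81 with 1 array left out, and that of estradiol wild type minus mock from 0.31 to 1.42; they were 0.66 and 0.43 with a pseudocount of 64, which damps dim values more, and 1.54 and 1.25 without one. All 10 single differences from mock stayed above 0 under every alternative run, which the choice of the genes makes likely. The smallest was 0.050, for JRG21 in estradiol wild type without its replicate 2 array. Signal over background limits JRG21, whose replicate 1 mock array lies near the Bacillus controls.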
